A study of Homo sapiens with 4 samples.

Results

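The genes of cholesterol and fatty acid synthesis were followed as a group of 30, chosen by symbol from the 61806 genes in the table of read counts, and all 30 were found there and had enough counts to be tested. They comprised 18 enzymes of the sterol branch, 6 enzymes of the fatty acid branch, 5 genes that regulate SREBP (sterol regulatory element-binding protein) and the sterol carrier STARD4. Poly(A) RNA was sequenced from 2 wild-type human cancer cell lines, MDA-MB-231 (labelled breast cancer cells) and MDA-MB-435 (labelled melanoma cells), each without treatment and after 6 h with 10 µM CPYPP. CPYPP is a small molecule that blocks the binding of the exchange factor DOCK2 to the GTPase Rac1, and the study used it to induce paraptosis, a form of cell death with swollen cytoplasmic vacuoles. Each of the 4 conditions was a single library, the labels name no vehicle for the controls, and each line stands for its tumour type by itself. Culture and dosing notes mention MDA-MB-435 alone throughout, so the line was taken from the cell line label of each sample.

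Animal cells make cholesterol from acetyl-CoA through mevalonate, the isoprenoid farnesyl diphosphate, squalene and lanosterol, and they make fatty acids from the same acetyl-CoA through malonyl-CoA. Transcription of both branches is set by the SREBP factors, which are held in the endoplasmic reticulum by SCAP and the INSIG proteins while sterols are plentiful. When sterols fall, SCAP carries the SREBPs to the Golgi, where they are cut and released to the nucleus. SREBF2 encodes the form that acts mainly on sterol genes, SREBF1 encodes the forms that act more on fatty acid genes, and INSIG1 is itself a target.

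The libraries held 17196385 to 22663954 counts, of which the 30 genes took between 0.213% and 0.260%. The share of mitochondrial counts was lower after CPYPP in both lines, at 4.21% against 5.34% in MDA-MB-231 and 3.55% against 4.73% in MDA-MB-435, and its part in the results was not tested. SOX10, a transcription factor of the melanocyte lineage, had 3031 and 707 counts in the MDA-MB-435 control and CPYPP libraries and 0 and 1 in those of MDA-MB-231. S100B, read as a further marker of that lineage, had 1055 and 761 counts in MDA-MB-435 and 0 in each MDA-MB-231 library. The pigment cell markers PMEL and MLANA were near 0 in both lines, with 4 to 34 counts per library. Of the epithelial markers, EPCAM, KRT19 and CDH1 held at most 4 counts in either MDA-MB-435 library, whereas KRT18 held 5740 and 4077. A lower level in these bulk libraries can come from fewer cells of a kind or from less RNA per cell, and the counts cannot tell these apart.

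Compared per length, as read counts scaled by exon length and library depth (FPKM), the fatty acid desaturase SCD was the highest of the 30 genes in all 4 libraries. Its level was 65.8 and 84.0 FPKM in control and CPYPP-treated MDA-MB-231 cells, and 43.6 and 46.3 FPKM in control and CPYPP-treated MDA-MB-435 cells. The next genes differed by line. In MDA-MB-231 controls they were ACAT2, the cytosolic thiolase that opens the mevalonate pathway (39.3 FPKM), and FDPS, which makes farnesyl diphosphate (28.3 FPKM). In MDA-MB-435 controls they were FASN, the fatty acid synthase (32.8 FPKM), and SREBF2 (28.5 FPKM). The lowest levels in every library belonged to MVK, CYP51A1 and TM7SF2, between 0.531 and 1.61 FPKM. For MVK the low rank reflects an exon length of 9018 bases, as its 326 counts in the MDA-MB-231 control compare with 321 for PMVK. The level of CYP51A1 is uncertain, since 83.2% of its exonic bases are shared with other genes. The median of the 30 genes was 11.3 and 13.2 FPKM without and with CPYPP in MDA-MB-231, against 12.1 and 12.2 FPKM in MDA-MB-435.

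**Figure D1:**
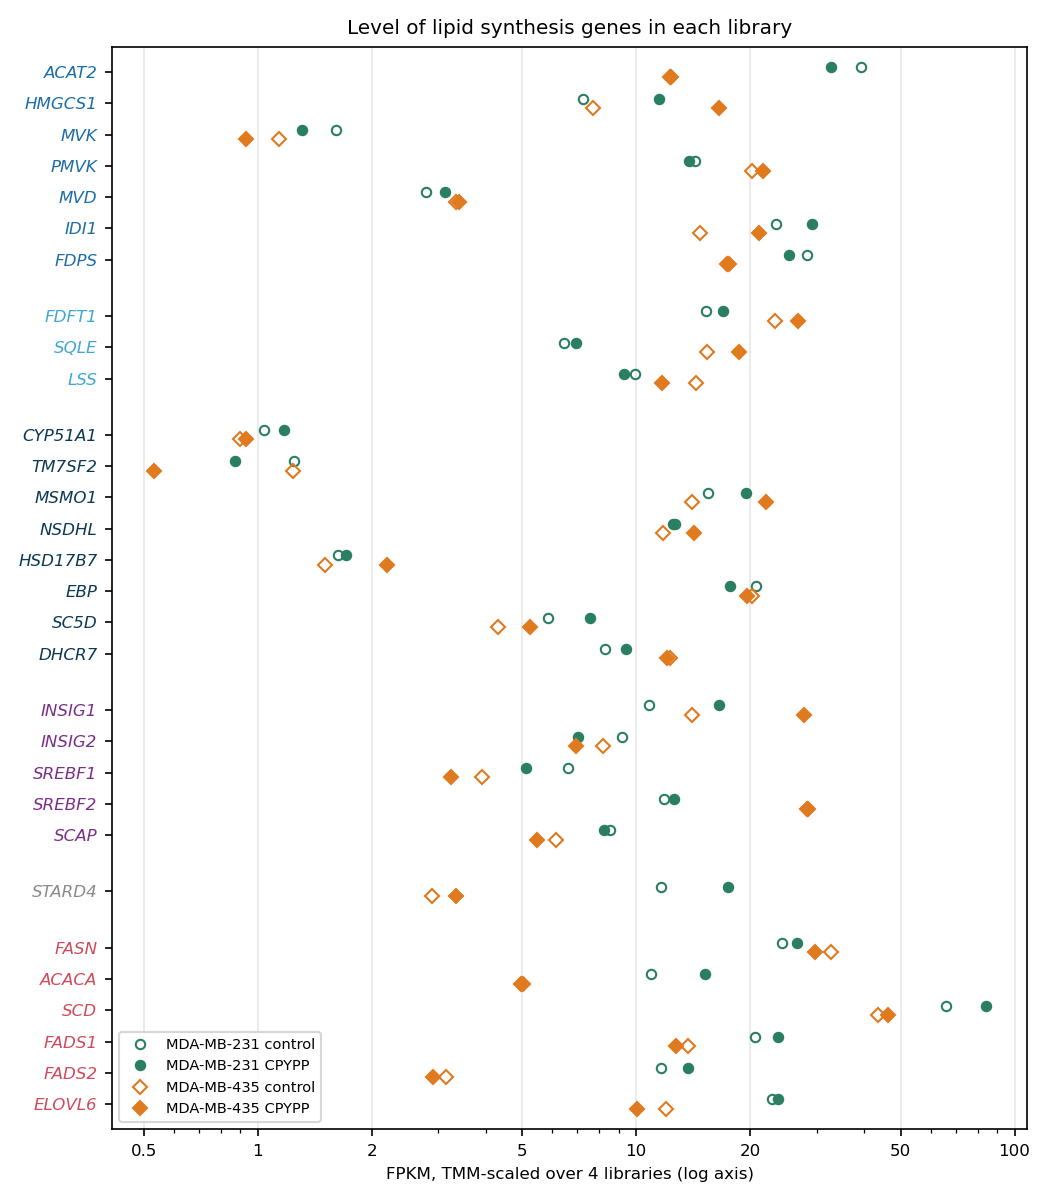
Level of each gene in each library, in FPKM on a log axis scaled by TMM over the 4 libraries, with 1 point per library (circles MDA-MB-231, diamonds MDA-MB-435, open for control and filled for CPYPP) and gene names coloured by group (blue shades sterol branch, purple regulators, grey sterol transport, red fatty acid branch). SCD lies at the top end in every library, at 43.6 to 84.0 FPKM, and STARD4 shows a wide gap between the lines, at 11.6 and 17.5 FPKM in MDA-MB-231 against 2.88 and 3.34 FPKM in MDA-MB-435.

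The first question was how the genes responded to CPYPP within each line. A gene was called where the fold change of normalised counts was over 2 and the adjusted p-value of edgeR's binomial test was under 0.05. With 1 library per condition this test compares a pair of libraries, not the conditions. The 95% intervals given with folds cover counting error only, not the spread between cultures. PCR reads without molecular identifiers are not independent molecules, so the intervals can be too narrow even for counting error. In MDA-MB-231, 0 of the 30 genes were called higher and 0 lower, where 4.22% and 3.09% of all 16441 genes tested were. In MDA-MB-435, 2 of 30 were called higher (6.67%, against 3.17% of all 16527 genes tested) and 1 lower (3.33%, against 6.52%). The median log2 fold change of the 18 sterol branch enzymes was 0.09 in MDA-MB-231, compared with 0.15 in MDA-MB-435, that of the 6 fatty acid enzymes was 0.23 and -0.03, and that of the 5 regulators was -0.04 and -0.10. The median over all genes tested was -0.01 in each line. Scaling by total counts in place of TMM moved it to -0.08 in MDA-MB-231, against -0.16 in MDA-MB-435.

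**Figure D2:**
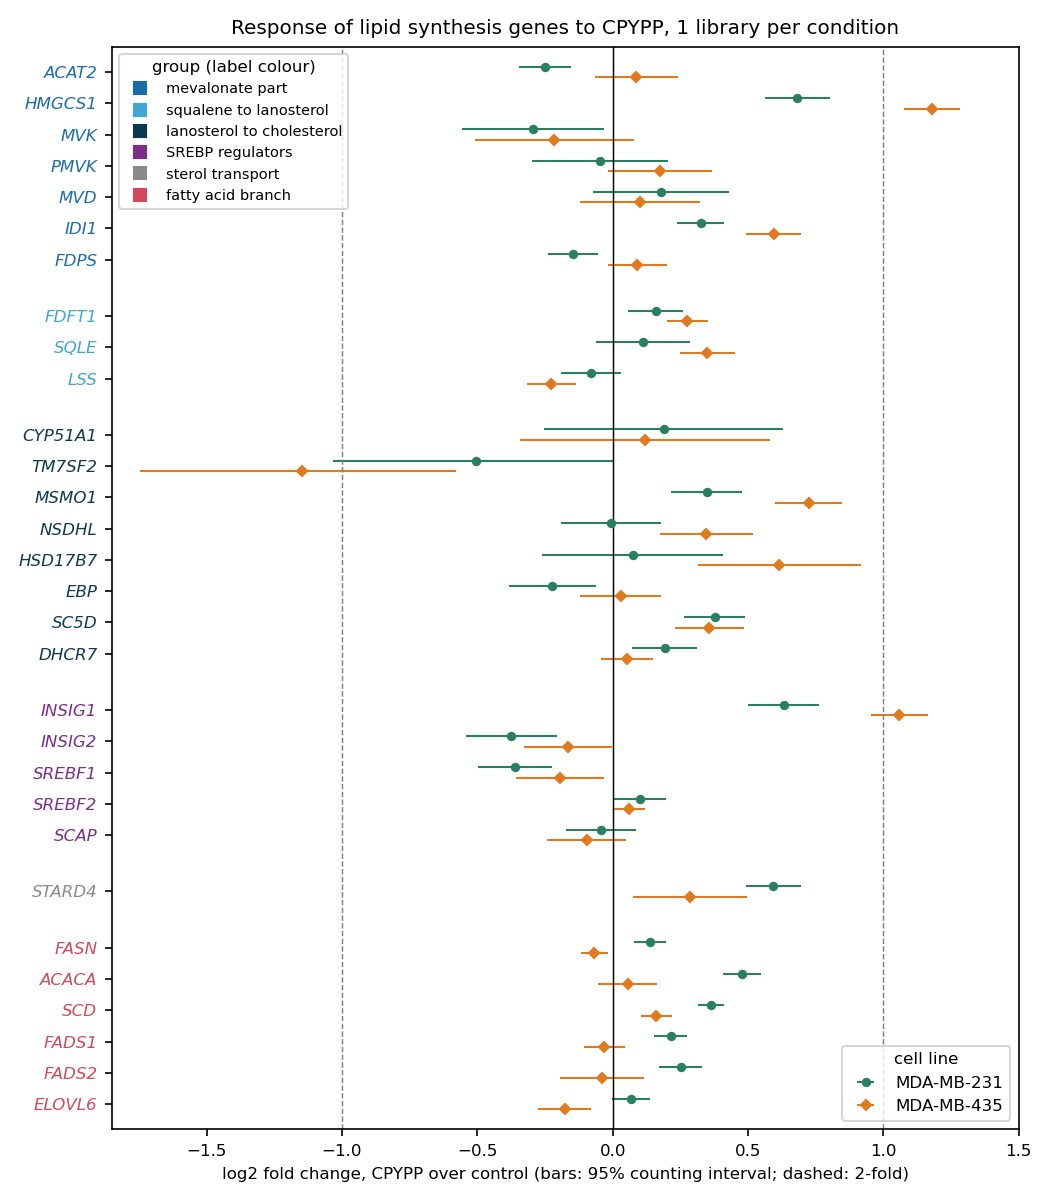
Log2 fold change of normalised counts, CPYPP over control, for each gene in MDA-MB-231 (circles) and MDA-MB-435 (diamonds), 1 library per condition, with 95% counting intervals as bars and a 2-fold change as dashed lines. HMGCS1 and INSIG1 lie past 2-fold in MDA-MB-435 at 1.18 and 1.06, TM7SF2 lies past it on the lower side at -1.15, and all 6 fatty acid enzymes have their circle to the right of their diamond.

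The largest rise was in HMGCS1, the cytosolic HMG-CoA synthase (ENSG00000112972, GRCh38 chromosome 5, 43287470 to 43313512, minus strand). HMGCS1 had 1073 counts in the MDA-MB-231 control and 1262 after CPYPP, and 1209 and 2123 in MDA-MB-435. The lines started at close levels, 7.23 and 7.70 FPKM, and ended at 11.5 and 16.6 FPKM. HMGCS1 was 2.26-fold higher after CPYPP in MDA-MB-435 (95% interval 2.11 to 2.43, adjusted p = 1.35e-117 by edgeR's binomial test) and 1.61-fold in MDA-MB-231 (1.48 to 1.74, adjusted p = 8.44e-29), the latter short of the 2-fold limit.

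INSIG1, the SREBP target that retains SCAP in the endoplasmic reticulum (ENSG00000186480, chromosome 7, 155297776 to 155310235, plus strand), was the other gene called higher. Its counts were 882 and 1001 in the MDA-MB-231 control and CPYPP libraries, and 1214 and 1961 in those of MDA-MB-435. INSIG1 was 2.08-fold higher in MDA-MB-435 (1.94 to 2.24, adjusted p = 2.3e-91 by edgeR's binomial test) and 1.55-fold in MDA-MB-231 (1.41 to 1.70, adjusted p = 4.58e-20). Its call in MDA-MB-435 was lost when libraries were scaled by total counts (log2 0.91) or by upper quartile (log2 0.95).

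TM7SF2, a reductase of the step after lanosterol demethylation (ENSG00000149809, chromosome 11, 65111845 to 65116384, plus strand), was the 1 gene called lower. It was among the lowest of the group, with 95 and 49 counts in MDA-MB-231, compared with 100 and 35 in MDA-MB-435. The fold was 0.451 in MDA-MB-435 (0.298 to 0.669, adjusted p = 9.09e-05 by edgeR's binomial test) and 0.704 in MDA-MB-231 (0.488 to 1.00, adjusted p = 0.102). The control libraries of the lines held almost the same count, and the CPYPP library held fewer in each. Had cultures varied with a biological coefficient of variation of 0.2 (an assumed value), none of these 3 calls would have remained (adjusted p = 0.147, 0.228 and 0.346 for HMGCS1, INSIG1 and TM7SF2 by edgeR's exact test). With an assumed value of 0.1 all 3 remained (adjusted p = 1.91e-06, 2.84e-05 and 0.0132 in the same order by edgeR's exact test). Which value holds for these cultures is unknown.

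At a lower limit of 1.5-fold with the same adjusted p-value, 3 of 30 genes were higher in MDA-MB-231 (8.54% of all genes) and 5 in MDA-MB-435 (8.31% of all genes), with 0 and 1 lower (6.67% and 11.4% of all genes). HMGCS1 and INSIG1 were in both sets. Both sets rest on TMM scaling. In MDA-MB-231 INSIG1 fell under 1.5-fold with total counts (log2 0.56) and with upper-quartile factors (log2 0.58). STARD4 was the third gene in MDA-MB-231, while IDI1, MSMO1 and HSD17B7 made up the set in MDA-MB-435. MSMO1, the methylsterol monooxygenase that starts the removal of methyl groups from lanosterol, had 988 and 921 counts in MDA-MB-231, against 949 and 1215 in MDA-MB-435. Its fold was 1.27 (1.16 to 1.39) and 1.65 (1.52 to 1.80) in these lines. IDI1, the isomerase that supplies dimethylallyl diphosphate, had 2249 and 2066 counts in MDA-MB-231, compared with 1501 and 1757 in MDA-MB-435, with folds of 1.25 (1.18 to 1.33) and 1.51 (1.41 to 1.62). Both genes were thus further from 1 in MDA-MB-435. HSD17B7, a sterol ketone reductase, had 175 and 135 counts in MDA-MB-231, against 171 and 203 in MDA-MB-435, for folds of 1.05 (0.835 to 1.33) and 1.53 (1.24 to 1.89).

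The other enzymes of the mevalonate part stayed close to their controls. ACAT2 had 2324 and 1431 counts in the MDA-MB-231 libraries and 767 and 632 in those of MDA-MB-435, with folds of 0.840 (0.786 to 0.898) and 1.06 (0.955 to 1.18). The folds of mevalonate kinase (MVK), phosphomevalonate kinase (PMVK), mevalonate diphosphate decarboxylase (MVD) and FDPS ran from 0.816 to 1.13 over both lines. From squalene to lanosterol, squalene synthase (FDFT1) had folds of 1.12 in MDA-MB-231, compared with 1.21 in MDA-MB-435, squalene epoxidase (SQLE) of 1.08 (0.959 to 1.22) and 1.27 (1.19 to 1.37), and lanosterol synthase (LSS) of 0.945 (0.875 to 1.02) and 0.854 (0.802 to 0.910). In MDA-MB-231 the intervals of SQLE and LSS held 1, while in MDA-MB-435 that of SQLE lay above 1 and that of LSS below it.

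Among the enzymes from lanosterol to cholesterol, SC5D, the desaturase of lathosterol, was the most even across the lines. It had 1317 and 1254 counts in MDA-MB-231, against 1030 and 1023 in MDA-MB-435, with folds of 1.30 (1.2 to 1.4) and 1.28 (1.17 to 1.40). NSDHL, which works with MSMO1 on the methyl groups, had folds of 0.996 and 1.27. The sterol isomerase EBP had 0.857 and 1.02, DHCR7, which closes one route to cholesterol, had 1.14 and 1.04, and the lanosterol demethylase CYP51A1 had 1.14 and 1.09. CYP51A1 rested on 75 to 97 counts per library, so that its interval ran from 0.838 to 1.55 in MDA-MB-231 and from 0.789 to 1.49 in MDA-MB-435.

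None of the SREBP regulators other than INSIG1 passed the 2-fold limit, and INSIG2 lay on the other side of 1 from INSIG1. INSIG2 (ENSG00000125629), the homologue of INSIG1 that also retains SCAP, had 812 and 459 counts in the MDA-MB-231 control and CPYPP libraries and 765 and 529 in those of MDA-MB-435. Its fold was 0.771 (0.687 to 0.866, adjusted p = 3.74e-05 by edgeR's binomial test) in MDA-MB-231, compared with 0.892 (0.797 to 0.998, adjusted p = 0.0803) in MDA-MB-435. INSIG1 was 10.8 FPKM and INSIG2 9.18 FPKM in MDA-MB-231 controls, whereas after CPYPP they were 16.6 and 7.03 FPKM. In MDA-MB-435 the levels went from 14.0 and 8.17 FPKM to 27.8 and 6.92 FPKM, so that INSIG1 was the higher of the pair in all 4 libraries, by the widest margin in CPYPP-treated MDA-MB-435 cells.

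SREBF1 (ENSG00000072310) also lay below its control in each line. It had 1221 and 697 counts in MDA-MB-231, against 763 and 517 in MDA-MB-435, with folds of 0.779 (0.709 to 0.856, adjusted p = 6.81e-07 by edgeR's binomial test) and 0.874 (0.780 to 0.978, adjusted p = 0.0368). SREBF2 (ENSG00000198911) had 2004 and 1573 counts in MDA-MB-231, compared with 5110 and 4129 in MDA-MB-435. Its folds were 1.07 (adjusted p = 0.0855 by edgeR's binomial test) and 1.04 (adjusted p = 0.088), and in MDA-MB-435 the direction turned with scaling by total counts or upper quartile (log2 -0.090 and -0.051). The escort protein SCAP (ENSG00000114650) had 1202 and 855 counts in MDA-MB-231, against 915 and 664 in MDA-MB-435, with folds of 0.971 (0.888 to 1.06) and 0.936 (0.846 to 1.04).

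The sequences before the annotated start show which letters known from SREBP-responsive promoters these genes carry. SREBPs bind sterol regulatory elements and act with the factors NF-Y, which binds CCAAT boxes, and SP1, which binds GC boxes. Windows of 250 bases before to 50 after a start were given by RefSeq (GRCh38.p14) for 26 of the 30 genes, all but ACAT2, FDFT1, SQLE and FASN. Shown are the genes with the largest changes, the INSIG pair and SREBF2, on the gene's strand and only up to the first base of the deposited gene. Capitals mark the sterol regulatory element core TCACNCCAC and the CCAAT box, on either strand (ATTGG is CCAAT on the other strand).
HMGCS1 (GRCh38 chr5:43313513-43313662, minus strand): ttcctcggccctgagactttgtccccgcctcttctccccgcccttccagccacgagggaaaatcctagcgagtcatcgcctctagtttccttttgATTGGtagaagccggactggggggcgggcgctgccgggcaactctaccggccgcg
INSIG1 (chr7:155297628-155297775, plus strand): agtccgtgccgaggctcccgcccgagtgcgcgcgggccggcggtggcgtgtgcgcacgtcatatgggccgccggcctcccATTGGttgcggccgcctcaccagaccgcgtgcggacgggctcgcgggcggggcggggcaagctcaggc
MSMO1 (chr4:165327419-165327666, plus strand): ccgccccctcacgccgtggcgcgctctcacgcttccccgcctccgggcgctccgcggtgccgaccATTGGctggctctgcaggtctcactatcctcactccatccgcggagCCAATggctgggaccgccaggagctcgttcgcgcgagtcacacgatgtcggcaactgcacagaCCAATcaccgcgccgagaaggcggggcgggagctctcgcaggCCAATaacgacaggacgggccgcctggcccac
TM7SF2 (chr11:65111622-65111844, plus strand): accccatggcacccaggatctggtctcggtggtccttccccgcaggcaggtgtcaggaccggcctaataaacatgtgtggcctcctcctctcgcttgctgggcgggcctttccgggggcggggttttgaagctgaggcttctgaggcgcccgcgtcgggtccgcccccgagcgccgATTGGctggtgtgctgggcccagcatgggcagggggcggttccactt
INSIG2 (chr2:118088221-118088451, plus strand): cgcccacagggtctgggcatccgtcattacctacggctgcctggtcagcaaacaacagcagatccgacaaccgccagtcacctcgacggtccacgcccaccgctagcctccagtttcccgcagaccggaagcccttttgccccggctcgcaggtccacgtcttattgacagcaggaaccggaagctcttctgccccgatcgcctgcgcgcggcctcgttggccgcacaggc
SREBF2 (chr22:41832855-41833078, plus strand): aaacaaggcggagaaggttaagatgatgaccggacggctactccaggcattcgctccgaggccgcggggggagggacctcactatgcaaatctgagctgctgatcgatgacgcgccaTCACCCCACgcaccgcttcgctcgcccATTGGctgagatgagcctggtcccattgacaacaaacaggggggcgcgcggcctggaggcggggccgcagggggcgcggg

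The stretches of HMGCS1, INSIG1 and MSMO1, which were higher after CPYPP, hold CCAAT boxes, and so does that of TM7SF2, which was lower in MDA-MB-435. The stretch of INSIG2 holds none, and the sterol regulatory element core was matched only in SREBF2, 133 bases before the start. Over the whole windows, a CCAAT box was found in 16 of 26 genes (61.5%, against 34.6% of 35116 windows in the table) and at least 2 of them in 11. It was in 12 of 15 sterol branch windows and in 1 of 5 fatty acid windows, that of SCD. The deposited genes can start further upstream, and the windows of MVK, CYP51A1, DHCR7, SCAP, ELOVL6, FADS1 and FADS2 lay wholly inside them, with the start 12315 bases in for FADS1 and 23223 for FADS2. The GC box GGGCGG was found in 23 of 26 (88.5%, against 45.0%), the E-box CACGTG in 4 (15.4%, against 7.26%) and the sterol regulatory element core in 1 (3.85%, against 1.13%). A match describes letters in the window and was not tested as a site.

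**Figure D3:**
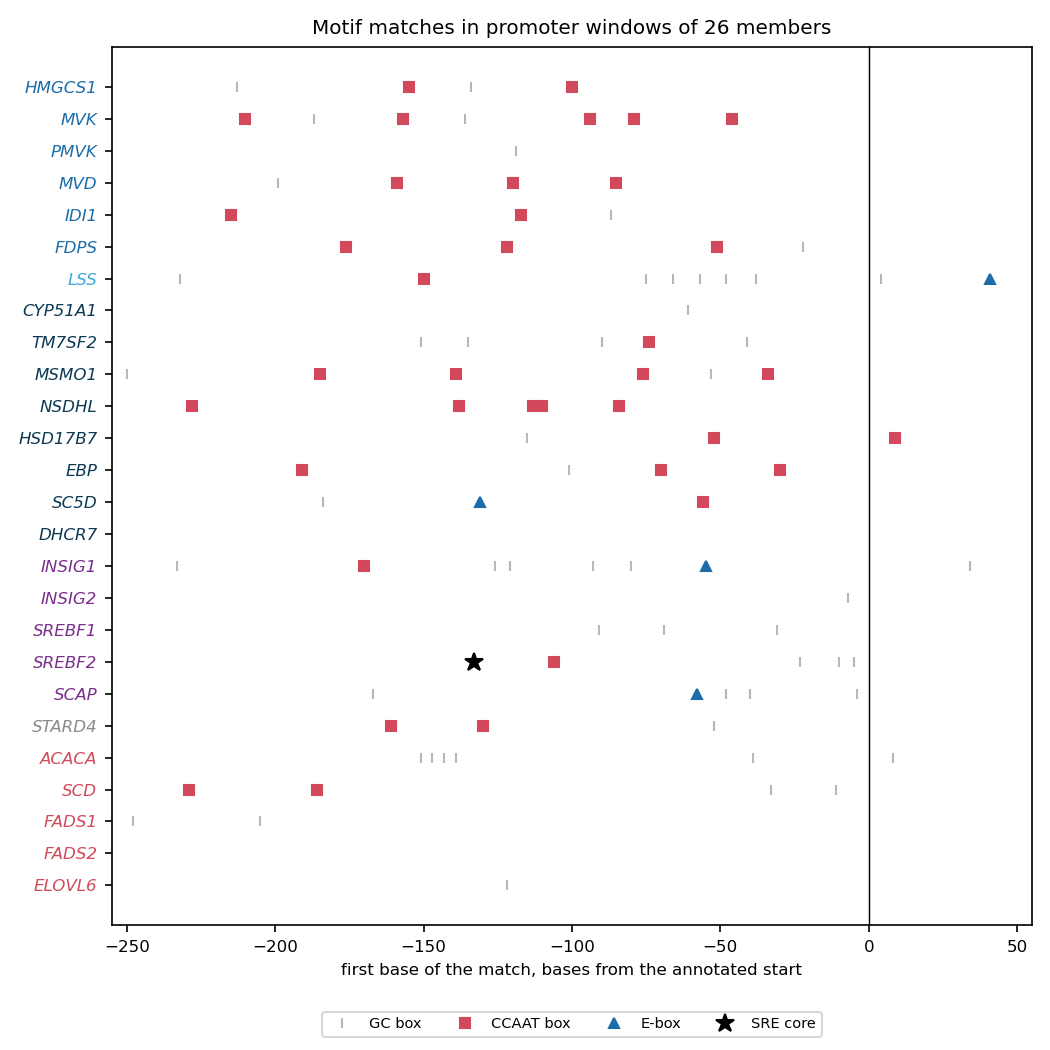
Position of each match to 4 short motifs, on either strand, in the promoter windows of 26 genes, in bases from the annotated start, with 1 row per gene and gene names coloured by group as for the levels. CCAAT boxes lie in 12 of 15 sterol branch rows and 1 of 5 fatty acid rows, and the sterol regulatory element core appears once, in the row of SREBF2.

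The fatty acid branch stayed within 1.5-fold of control in both lines. ACACA, the acetyl-CoA carboxylase that makes malonyl-CoA, had 3203 and 3269 counts in MDA-MB-231, compared with 1553 and 1251 in MDA-MB-435, with folds of 1.39 (1.33 to 1.46) and 1.04 (0.964 to 1.12). FASN had 5080 and 4093 counts in MDA-MB-231, against 7238 and 5356 in MDA-MB-435, with folds of 1.10 (1.05 to 1.15) and 0.954 (0.921 to 0.989). It was the 1 gene of the 30 whose interval lay above 1 in MDA-MB-231 and below 1 in MDA-MB-435. Of all 14262 genes tested in both lines, 2.39% did so. SCD had 7727 and 7283 counts in MDA-MB-231, compared with 5416 and 4697 in MDA-MB-435, for folds of 1.29 (1.25 to 1.33) and 1.12 (1.08 to 1.16). The desaturases of polyunsaturated fatty acids, FADS1 and FADS2, had folds of 1.16 and 1.19 in MDA-MB-231, against of 0.979 and 0.973 in MDA-MB-435. The elongase ELOVL6 had 1.05 and 0.884. The 6 genes together took 0.122% of counts in the MDA-MB-231 control (95% exact binomial interval 0.120% to 0.123%) and 0.139% after CPYPP (0.137% to 0.141%), and 0.0900% (0.0888% to 0.0912%) and 0.0813% (0.0800% to 0.0826%) in MDA-MB-435. As a share of total counts the branch was thus higher with CPYPP in MDA-MB-231 cells and lower in those of the other line. With TMM scaling the summed counts gave a fold of 1.2 in the first and 1.00 in the second, so the lower share rests on scaling by total counts. The sterol branch took 0.0818% and 0.0842% in MDA-MB-231, compared with 0.0828% and 0.0920% in MDA-MB-435.

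STARD4, which moves cholesterol between membranes, was at 1483 and 1640 counts in MDA-MB-231, against 388 and 367 in MDA-MB-435. Its fold was 1.51 (1.41 to 1.62) in MDA-MB-231, compared with 1.22 (1.05 to 1.41) in MDA-MB-435. With TMM scaling STARD4 was therefore the 1 gene past 1.5-fold in MDA-MB-231 that was not past it in MDA-MB-435. Its interval in MDA-MB-231 held 1.5.

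By counting error alone, the interval of the fold lay above 1 for 14 genes, below 1 for 6 and across 1 for 10 in MDA-MB-231, where 26.3% and 23.2% of all genes lay above and below. In MDA-MB-435 it lay above 1 for 12, below 1 for 6 and across 1 for 12 (29% and 25.1% of all genes above and below). It lay above 1 in both lines for 9 of the 30 genes, against 18.2% of all 14262 genes tested in both, and below 1 in both for INSIG2 and SREBF1, against 11.6%. The 9 genes were HMGCS1, IDI1, FDFT1, MSMO1, SC5D, INSIG1, SREBF2, STARD4 and SCD.

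For the effect common to both lines, edgeR's quasi-likelihood test was run on the 4 libraries, blocked by line, which leaves 1 residual degree of freedom. HMGCS1 rose by 0.89 on the log2 scale (SE 0.137, adjusted p = 0.00398) and INSIG1 by 0.81 (SE 0.136, adjusted p = 0.00651), and both were higher with CPYPP in 2 of 2 lines. These 2 were the members called higher (6.67%, against 4.39% of all 16801 genes tested), and 0 were called lower (2.85% of all genes). At an unadjusted p-value under 0.05 there were 8 genes (26.7%, against 21.1% of all genes). IDI1 (log2 0.42, SE 0.115, adjusted p = 0.0575) and MSMO1 (log2 0.49, SE 0.139, adjusted p = 0.0603) missed the threshold narrowly in edgeR's quasi-likelihood test. The values of STARD4 (log2 0.41, adjusted p = 0.126), SC5D (0.32, adjusted p = 0.165), TM7SF2 (-0.86, adjusted p = 0.205), SREBF1 (-0.32, adjusted p = 0.215) and INSIG2 (-0.31, adjusted p = 0.252) were further from it by the same edgeR test. The common effect of SREBF2 was 0.04 (it turned to -0.032 with total counts) and that of SCAP -0.11. The count of 2 went to 0 in a model without the line and to 5 with DESeq2's Wald test, where 7.52% of all genes were called higher.

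The next question was whether the branches responded differently in the lines. For each gene the log2 fold change in MDA-MB-231 was subtracted from that in MDA-MB-435, with a 95% interval for counting error. A design with 1 library per condition leaves no test of this difference against culture-to-culture variation. A difference over 2-fold was seen for 0 of 30 genes, where 1.66% of all 14262 genes were past it on the higher side and 4.75% on the lower. Smaller differences were counted by branch. The shares of all genes take in genes from 10 counts up, whose intervals can be wider, and were not matched for count. The interval lay below 0 for 6 of 6 fatty acid enzymes, against 17.8% of all genes, that is, CPYPP over control was lower in MDA-MB-435. These differences ran from -0.42 for ACACA (-0.55 to -0.29) to -0.20 for SCD and FASN, with a median of -0.24. In the sterol branch the interval lay above 0 for 9 of 18 enzymes, against 25.1% of all genes, and below 0 for 1, LSS. The median difference was 0.23 for the sterol branch and 0.03 for all genes.

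Among the sterol enzymes whose interval lay above 0, the largest differences belonged to HSD17B7 (0.54, 0.10 to 0.98) and HMGCS1 (0.50, 0.34 to 0.65), followed by MSMO1 (0.38, 0.20 to 0.55), NSDHL (0.35, 0.10 to 0.60) and ACAT2 (0.34, 0.16 to 0.52). The remaining enzymes above 0 were IDI1, FDPS, SQLE and EBP, between 0.24 and 0.27. TM7SF2 had a difference of -0.64, with an interval that held 0 (-1.39 to 0.10). Among the regulators, INSIG1 differed by 0.43 (0.26 to 0.59), like the sterol enzymes, while INSIG2, SREBF1, SREBF2 and SCAP had intervals that held 0. STARD4 differed by -0.31 (-0.54 to -0.08), on the side of the fatty acid enzymes. With each of 3 other scalings the interval stayed below 0 for 6 of 6 fatty acid enzymes, and it lay above 0 for 7 to 9 of the sterol enzymes.

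**Figure D4:**
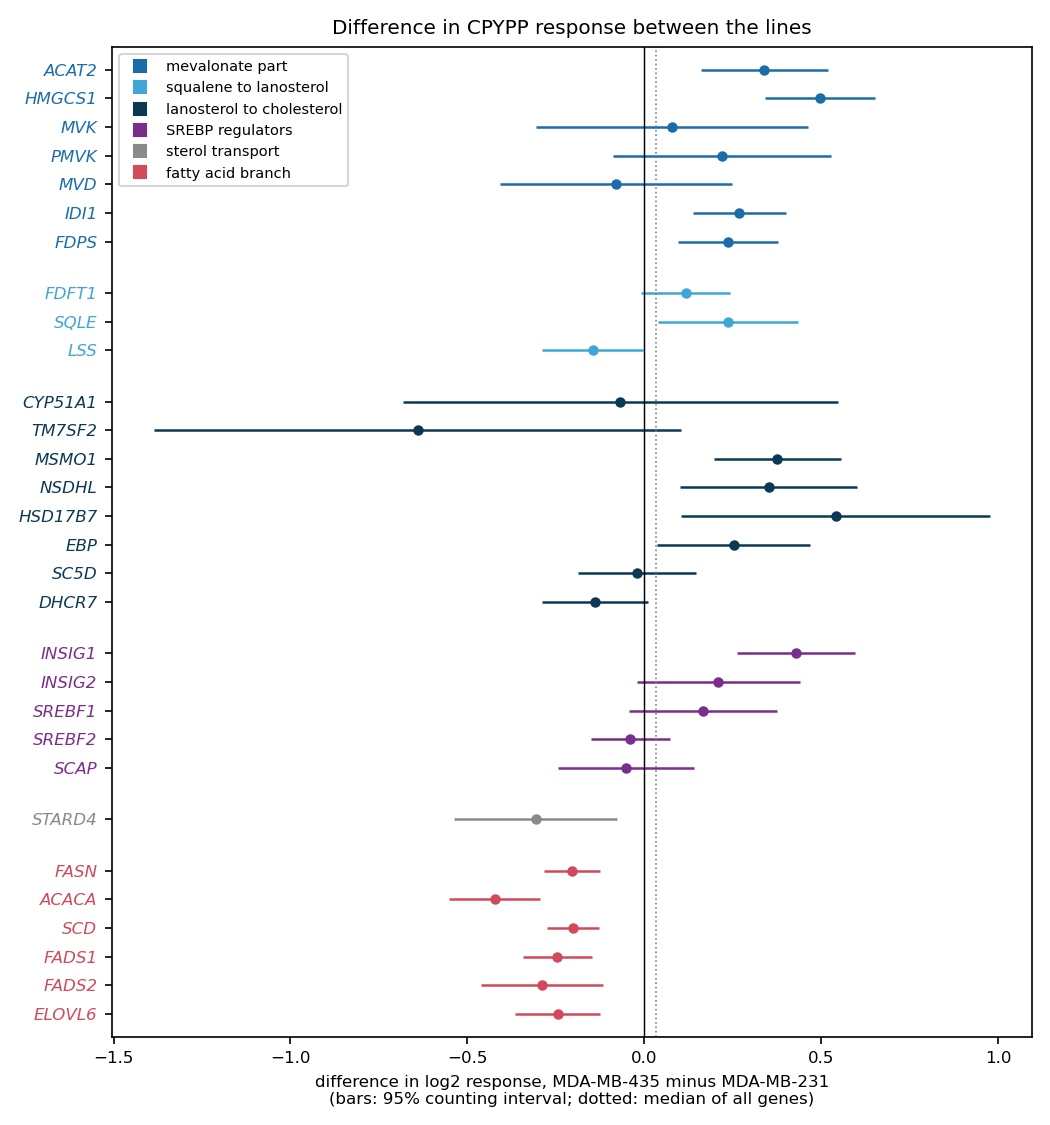
Difference in log2 response to CPYPP, MDA-MB-435 minus MDA-MB-231, for each gene, with 95% counting intervals as bars and the median of all genes as a dotted line at 0.03. The 6 fatty acid enzymes lie between -0.42 and -0.20, left of 0 with their intervals, and 9 of 18 sterol branch enzymes lie right of 0 with theirs.

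The control libraries show how the lines differed before treatment. Between the control libraries, SREBF2 was 2.38-fold higher in MDA-MB-435 (2.26 to 2.51, adjusted p = 1.36e-260 by edgeR's binomial test) and SQLE 2.36-fold higher (2.15 to 2.59, adjusted p = 4.41e-80). These were 2 of 30 genes called higher (6.67%, against 22.2% of all 18269 genes tested). Called lower were 4 of 30 (13.3%, against 20.9%). STARD4 was 4.10-fold lower in MDA-MB-435 (3.66 to 4.59), FADS2 3.75-fold lower (3.46 to 4.06), ACAT2 3.25-fold lower (2.99 to 3.53) and ACACA 2.21-fold lower (2.08 to 2.35). At the lower limit of 1.5-fold, 3 were higher (29.8% of all genes) and 10 lower (28.8% of all genes).

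By branch, 5 of 6 fatty acid enzymes were lower in MDA-MB-435 controls by their interval, where 40.1% of all genes were. The exception was FASN, which was 1.33-fold higher (1.28 to 1.38). FDFT1, SQLE and LSS, which lead from farnesyl diphosphate to lanosterol, all lay above 1, at 1.51, 2.36 and 1.43, where 38.8% of all genes did. These shares of all genes were not matched for count either. HMGCS1 (1.05, 0.967 to 1.14) and TM7SF2 (0.982, 0.734 to 1.31) had intervals that held 1, while INSIG1 was 1.28-fold higher in MDA-MB-435 controls (1.18 to 1.40, adjusted p = 2.89e-08 by edgeR's binomial test). SREBF1 was 0.583 of its MDA-MB-231 level (0.532 to 0.639). The balance of the SREBP genes thus differed between the lines, with SREBF1 at 6.62 FPKM and SREBF2 at 11.8 FPKM in MDA-MB-231 controls and 3.91 and 28.5 FPKM in MDA-MB-435 controls.

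**Figure D5:**
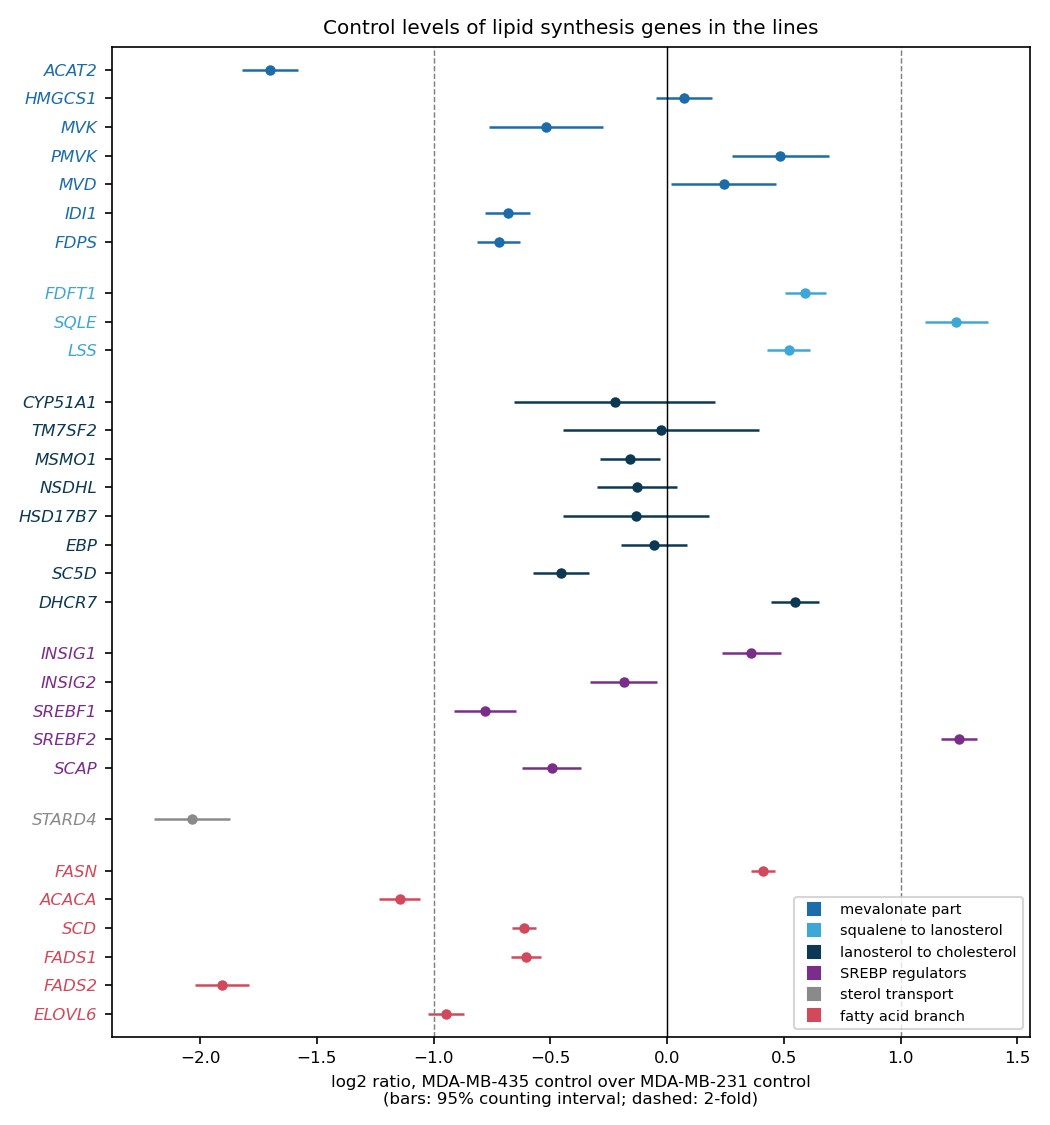
Log2 ratio of normalised counts between the control libraries, MDA-MB-435 over MDA-MB-231, for each gene, with 95% counting intervals as bars and a 2-fold ratio as dashed lines. SREBF2 and SQLE lie past 2-fold on the right at 1.25 and 1.24, and STARD4, FADS2, ACAT2 and ACACA on the left at -2.03, -1.91, -1.70 and -1.14.

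Beyond the 30 genes, 47 further genes of lipid metabolism were read in 6 lists covering acyl-CoA supply and elongation, SREBP processing and INSIG turnover, the sterol receptor LXR and its targets, sterol storage and movement, isoprenoid side branches and the promoter partners of SREBP. In MDA-MB-231, 0 of 47 were called in either direction (4.22% and 3.09% of all genes higher and lower), and in MDA-MB-435, 0 of the 46 tested (3.17% and 6.52%). Their median log2 fold change was 0.08 in MDA-MB-231, against 0.10 in MDA-MB-435. By edgeR's quasi-likelihood test, 3 of 47 had a common effect, all higher, where 4.39% of all genes were higher. They were UFD1, which takes part in the removal of ubiquitinated proteins from the endoplasmic reticulum (log2 0.62, SE 0.121, adjusted p = 0.013), the elongase ELOVL5 (log2 0.48, SE 0.112, adjusted p = 0.0282) and the acyl-CoA synthetase ACSL3 (log2 0.42, SE 0.107, adjusted p = 0.0406). UFD1 had 1180 and 1217 counts in MDA-MB-231, compared with 1908 and 2633 in MDA-MB-435.

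The malic enzyme ME1, a source of NADPH, set the lines apart, with 1356 and 1687 counts in MDA-MB-231, against 2 and 0 in MDA-MB-435. Its fold in MDA-MB-231 was 1.70 (1.58 to 1.83), and in MDA-MB-435 it was too low to test. The sterol exporter ABCG1 was the 1 gene of the 47 whose response differed by over 2-fold. Of all genes, 1.66% were past that limit on the higher side and 4.75% on the lower. The difference of ABCG1 was 1.53 on the log2 scale (0.33 to 2.72). Its counts were 30 and 15 in MDA-MB-231, compared with 21 and 32 in MDA-MB-435. The proteases that release SREBP, MBTPS1 and MBTPS2, had folds of 1.12 and 0.899 in MDA-MB-231, against 1.04 and 0.923 in MDA-MB-435. Of the subunits of NF-Y, NFYA had folds of 0.897 and 0.894, NFYB 0.931 and 1.10, and NFYC 0.878 and 1.04, in the same order of lines. SP1 had 1.06 and 1.18.

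Overlapping genes bear on a few of these counts, since the strand setting of the counting is not given in the sources used here. In GENCODE v29, 16 of the 30 genes share no exonic base with another gene. More than 25% is shared by 2 of them, CYP51A1 and ACAT2, and their values are uncertain for that reason. CYP51A1 shares 83.2%, with AC000120.2 and AC000120.3 on its own strand and CYP51A1-AS1 on the opposite strand. ACAT2 shares 52.3%, with SOD2, SOD2-OT1 and TCP1 on the opposite strand. A known strand setting would not separate genes that overlap on the same strand. HMGCS1 shares 15% with an antisense transcript, INSIG1 and MSMO1 share none, and TM7SF2 shares 0.469%. Of the near-identical copies, HSD17B7P2 had 13 to 53 counts per library beside the 135 to 203 of HSD17B7.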

How the data were processed

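RNA from both lines, control and CPYPP, was analysed in 4 libraries, 1 per condition. The authors deposited raw read counts per gene with positions and exon lengths, without normalization. The submitters' processing notes name cutadapt 1.9.1, HISAT2 2.2.1, HTSeq 0.6.1, DESeq2 and GRCh37.p13, but the deposited positions of all 30 genes overlap those of GRCh38 (GENCODE v29), so GRCh38 was used. The strand setting is not given in the sources used here. Depth was 22359735 and 17196385 counts (MDA-MB-231 control and CPYPP) and 22663954 and 19489282 (MDA-MB-435).

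Analysis used R 4.3.3, edgeR 4.0.16 and DESeq2 1.42.0, and Python 3.11.15 with pandas 2.3.3, scipy 1.17.1 and matplotlib 3.10.9. Within a line, genes reaching 10 counts in either library were scaled by TMM and tested with edgeR's binomial test with Benjamini-Hochberg adjustment over all genes tested. Calls needed an adjusted p-value under 0.05 and over 2-fold change, the limits that the study used. Folds have 95% Clopper-Pearson intervals, and counts of 3 or fewer were set to 3. The common effect used edgeR's quasi-likelihood test after filterByExpr with the line as a block. Its SE was the size of the log2 effect divided by the square root of the test's F statistic. FPKM were scaled by TMM over the 4 libraries, so their ratios differ slightly from the folds. The procedure was also run on simulated data. The within-line tests and the differences in response were simulated with counting error only. Variation between cultures was therefore not covered there.

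Every one of the 30 genes was accounted for. Full statistics were given for called genes and the 5 regulators, and sequences for genes with large changes and the INSIG pair. The 30 genes, the lists and the tests were chosen with earlier results of these data known. Promoter windows were those nearest the 5′ end of the deposited gene. Alternatives concerned scaling, filters, an assumed biological variation, the fold limit, the tool and the block. Scalings of the branch differences, and the sterol branch without ACAT2 and CYP51A1, were added after the data had been seen.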

Additional observations from a re-analysis of the deposited data

How the results depend on the processing

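With a fold limit of 1.5 in place of 2, the genes called higher were 3 in MDA-MB-231, compared with 5 in MDA-MB-435, and those lower in MDA-MB-435 than in MDA-MB-231 controls were 10. In MDA-MB-435 the 2 genes called higher became 1 with total counts and 1 with upper-quartile factors. Under a coefficient of biological variation assumed at 0.2 or 0.4 they became 0, and the 1 called lower became 0. At 0.1 the 2 higher and the 1 lower remained. At 0.4 the control comparison had 0 higher and 0 lower. The median log2 fold change of the fatty acid branch was 0.16 in MDA-MB-231, against -0.18 in MDA-MB-435 with total counts, and -0.15 in MDA-MB-435 with upper-quartile factors. That of the regulators in MDA-MB-435 was -0.24 with total counts. SREBF2 turned direction in MDA-MB-435 with total counts (-0.090) and upper-quartile factors (-0.051), and in the common effect with total counts (-0.032). Common calls higher numbered 5 with DESeq2's Wald test (7.52% of all genes), 4 with DESeq2 size factors (5.45%), 4 without a filter (3.25% of 32210) and 0 without the replicate block, where edgeR's quasi-likelihood test called 0 of all genes and 1 of the 30 had an unadjusted p-value under 0.05. Sterol enzymes with a difference below 0 numbered 2 with total counts and 2 with upper-quartile factors. The sterol branch median in MDA-MB-435 was 0.15 with TMM, -0.0018 with total counts and 0.036 with upper-quartile factors. Over all genes tested there it was -0.16 with total counts. Without ACAT2 and CYP51A1 the sterol branch median in MDA-MB-435 was 0.23 with TMM. The cause of these changes was not tested. Of the values recomputed, 98 summary values stayed within a margin and 21 moved. The margin was 1.5-fold for counts of genes. For medians it was the counting interval of the gene nearest the median. The sterol branch median in MDA-MB-435 with total counts thus counted as kept. Of single genes, 129 values kept their direction and whether they were called, 10 lost their call and 3 turned direction. Genes not called at first counted as kept even where the adjusted p-value rose. In the within-line tests, filters and assumed variation leave the fold unchanged and could not turn its direction. No replicate could be left out with 1 library per condition, and the spread between cultures is unknown.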
